A study of Homo sapiens with 23 samples.

Results

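ALK encodes anaplastic lymphoma kinase, a receptor tyrosine kinase of the developing nervous system. The peaks described here are those of 5 chromatin immunoprecipitation (ChIP-seq) lists that overlapped an 840 kb window of chromosome 2 (29360000 to 30200000, hg19) around this gene. The gene runs on the minus strand, and its body, given with the window as about 29415600 to 30144500, spans about 729 kb. The window held 65 peaks of the 52708 in all lists. The members were selected on the positions of the listed peaks themselves, in a window proposed with the peak counts of these lists known. Their number and position are therefore a description and carry no test.

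ALK is switched on by the secreted ligands ALKAL1 and ALKAL2 and signals through RAS-MAPK and PI3K. Activating mutations and amplification of ALK occur in neuroblastoma, a tumour of the sympathetic nervous system, and SH-SY5Y, the human neuroblastoma line studied here, carries an activating ALK mutation. LSD1 (KDM1A) is a nuclear demethylase that removes methyl groups from histone lysines, often as a part of corepressor complexes. LSD1+8a is its neuronal splice isoform. Supervillin (SVIL) binds actin, and the series design calls it the cofactor of LSD1+8a.

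The series profiled SH-SY5Y cells during neuronal maturation, with retinoic acid first (10 µM, 4 days) and then brain-derived neurotrophic factor (BDNF, 50 ng/mL, 3 days). Days are counted from the start of BDNF. The groups used are SVIL in cells with control shRNA at day 3, LSD1+8a in cells with control shRNA at day 3, LSD1 in cells with control shRNA at day 3, LSD1 in cells with LSD1+8a shRNA at day 0, and LSD1 in cells with control shRNA at day 0. All cells were of the same line, all groups carried an shRNA, and each group is a lone library by the sample titles, so there is no replicate error to hold a difference against and conditions were not tested. Of the 23 samples, 14 are ChIP and 9 are input samples, and the other 9 ChIP samples were not analysed here. The extent of the LSD1+8a knockdown was not measured in these lists.

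The lists are of unequal length, with 1452 peaks for SVIL, 3378 for LSD1+8a, 20748 for LSD1 at day 3, 10248 for LSD1 in knockdown cells and 16882 for LSD1 of control cells at day 0. How many reads each library had is unknown here. A missing peak therefore means only that it was not listed, and raw tags (reads in a peak) of different libraries differ with depth. Scores and fold enrichments are the values of the authors' peak caller. They are used only within a list, except in the check that applied the lowest SVIL score to every list. Intervals in parentheses are exact (Clopper-Pearson) 95% binomial intervals and cover counting error only. No annotation of hg19 was used, so exons and introns are not assigned, and positions within the gene are given as distances downstream of its approximate 5′ end.

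At the ALK locus, SVIL had 11 peaks and LSD1+8a had 5. LSD1 had 26 in control cells at day 3, 9 in knockdown cells and 14 in control cells at day 0. All of them overlapped the gene body except 1 SVIL peak and 2 LSD1 peaks of control cells at day 3, which lay beside it. The SVIL density was 13.1 peaks per Mb at the locus against 0.477 over the whole list, a ratio of 27.4. For LSD1+8a it was 5.95 against 1.11 peaks per Mb, a ratio of 5.36. LSD1 had 30.95 against 6.82 peaks per Mb in control cells at day 3, a ratio of 4.54. In knockdown cells it had 10.7 against 3.37, a ratio of 3.18, and in control cells at day 0 16.7 against 5.55, a ratio of 3.00. SVIL had the shortest list and the highest ratio, and 7.43% of all its 148 peaks on chromosome 2 lay in this window.

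The locus was also set beside 3633 windows of the same length tiled along all chromosomes, counting each peak by its summit. Only 2 of these windows (0.0551%) held as many SVIL peaks as the locus or more, and 1 of them was the window that covers most of the locus itself. For LSD1+8a there were 91 such windows (2.50%), for LSD1 at day 3 there were 9 (0.248%), in knockdown cells 214 (5.89%) and in control cells at day 0 182 (5.01%). The median window held no SVIL and no LSD1+8a peak. It held 5 LSD1 peaks of control cells at day 3, 2 of knockdown cells and 4 of control cells at day 0. As the window was proposed with these counts known, its place among the windows is a description only.

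The other windows with the most SVIL peaks differed in what else they held. On chromosome 11 (71400001 to 72240000), the window had 12 SVIL, 7 LSD1+8a, 22 day 3 LSD1, 14 knockdown and 17 control day 0 LSD1 peaks. That on chromosome 10 (29400001 to 30240000) had 10 SVIL peaks, 1 LSD1+8a peak, and 20 LSD1 peaks at day 3, 2 in knockdown and 26 in control cells at day 0. On chromosome 6 (26040001 to 26880000) there were 9 SVIL and 11 LSD1+8a peaks, with 27 LSD1 peaks at day 3, 22 in knockdown and 32 in control cells at day 0. Windows on chromosome 1 (210000001 to 210840000) and chromosome 7 (132720001 to 133560000) had 8 SVIL and 3 LSD1+8a peaks each. In that on chromosome 1 there were 22 LSD1 peaks at day 3, 5 in knockdown and 20 in control cells at day 0. The chromosome 7 window had 25 LSD1 peaks at day 3, 10 in knockdown and 13 in control cells at day 0, each within 1 of the count at the ALK locus.

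Counts were lower on either side of the window. SVIL had 1 peak in the flank of the same length on the 3′ side and 3 in that on the 5′ side. LSD1+8a had 3 and 2, LSD1 in control cells at day 3 had 13 and 15, LSD1 in knockdown cells 8 and 4, and LSD1 in control cells at day 0 12 and 6. All of these flank counts lay below those of the locus, by 1 peak in the case of the knockdown list on the 3′ side. The first peaks beyond the window at its 3′ side lay 20.1 to 21.5 kb from the edge in all 5 lists, between 29336575 and 29339896. On the 5′ side, a day 3 LSD1 peak of 30 tags started 71 bp outside the window (30200071) and was not counted, while the outermost one counted was 29.9 kb inside it (30169110 to 30170065, 44 tags).

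**Figure D1:**
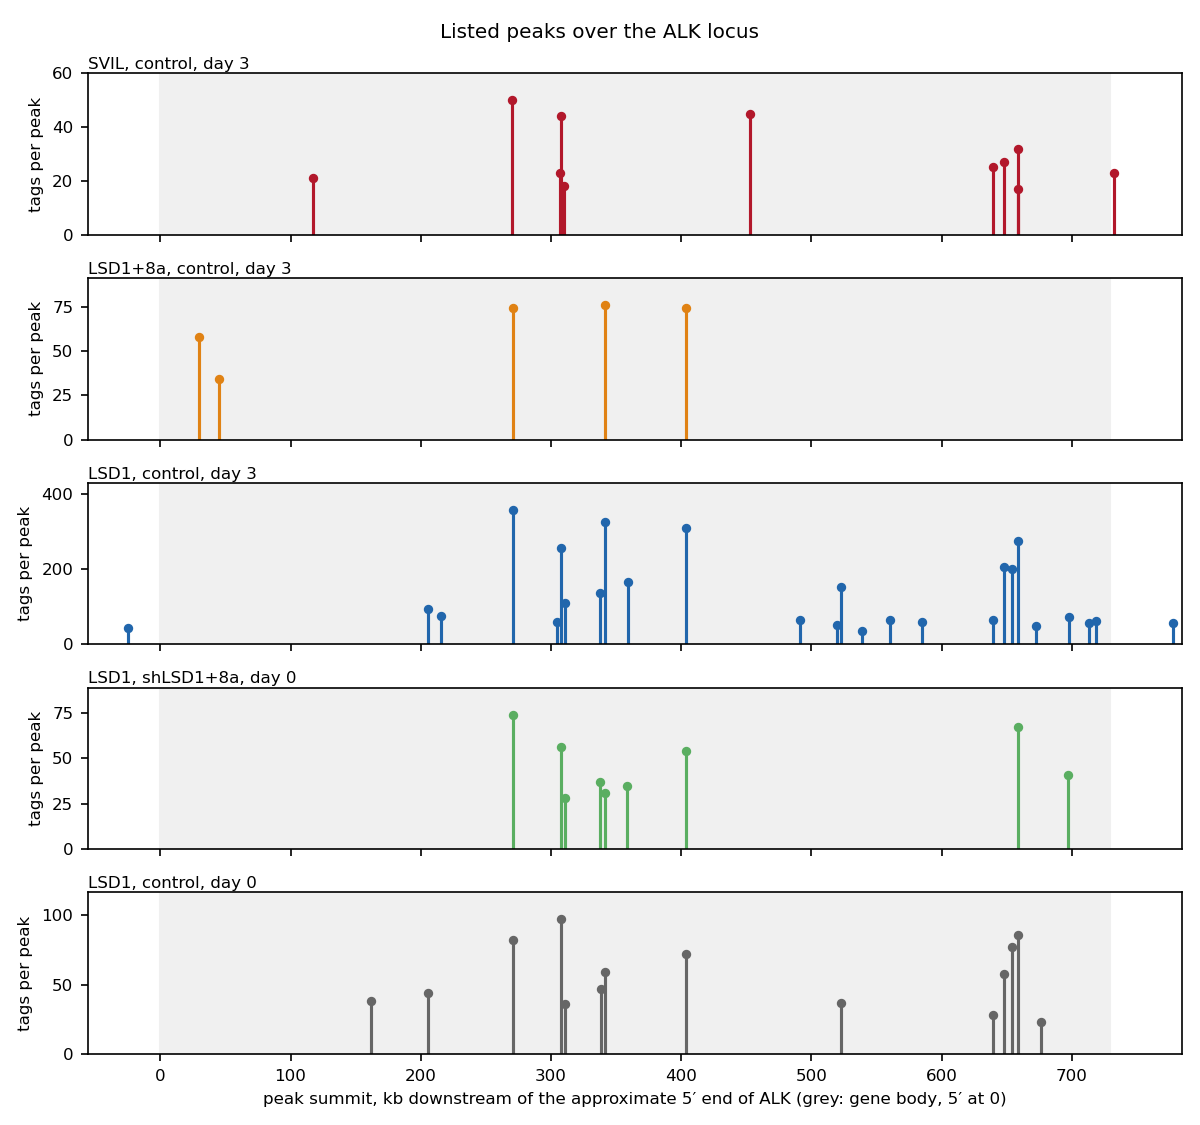
Tags per peak against the position of the peak summit, in kb downstream of the approximate 5′ end of ALK, for each list in a panel of its own with its own axis. The grey band is the gene body. Peaks of all lists crowd between 270 and 405 kb and, except LSD1+8a, from 639 kb on, and the first 28.4 kb of the gene hold none.

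Overlapping peaks were joined, which gave 33 regions. A lone list accounted for 19 of them, while 5 were found in 2 lists, 3 in 3 lists, 5 in 4 lists and 1 in every list. The 6 regions of 4 or 5 lists were 18.2% of the regions of the locus, against 3.95% of the 32188 regions of the series. As the window was proposed with its many peaks in these lists known, nothing is read from this contrast. Single-list regions had nearly the same share, 57.6% at the locus and 57.6% in the series. The most frequent kind at the locus was a region with a day 3 LSD1 peak alone, with 12 regions (36.4%), near the 33.5% of this kind in the series.

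No list had a peak at the 5′ end of ALK. The nearest was the day 3 LSD1 peak upstream of the gene, 24.6 kb from the 5′ end, followed by an LSD1+8a peak 28.4 kb inside the gene. The nearest SVIL peak was 117 kb from the 5′ end, the nearest LSD1 peak of control cells at day 0 161 kb and the nearest of knockdown cells 270 kb. With an approximate gene end these distances are approximate too. The 250 bases before the most upstream ALK start that RefSeq lists are shown because no list had a peak at this end of the gene. They are given 5′ to 3′ on the minus strand from GRCh38.p14 (chr2:29921587-29921836), a build other than that of the peaks, with E-box letters (CANNTG) in capitals.
ALK, bases before the start: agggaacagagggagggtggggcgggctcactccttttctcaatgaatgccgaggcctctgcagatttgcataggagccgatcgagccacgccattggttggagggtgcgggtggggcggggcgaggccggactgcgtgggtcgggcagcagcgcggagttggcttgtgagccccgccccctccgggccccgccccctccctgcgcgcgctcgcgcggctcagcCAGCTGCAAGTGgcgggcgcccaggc
Their GC content was 71.6%, against a median of 58% over 35116 RefSeq promoters of the same length, and they held 24 CG dinucleotides against a median of 11. On either strand, the sequence held 2 matches to CANNTG, side by side near the start, and 61.8% of promoters held at least 1. It had 4 matches to GGGCGG, the GC box bound by Sp1 proteins (42.6% of promoters), 1 to AATC, the core of the site of GFI1, a repressor known to recruit LSD1 (64.8%), and none to TTCAGCACC, a part of the site of the repressor REST (0.288%). Matches are a description of these letters only.

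Going 5′ to 3′, the 2 LSD1+8a peaks in the first 46 kb of the gene came first. One (30114389 to 30116073) had 58 tags and a score of 89.3, the highest LSD1+8a score at the locus, and the other (30098856 to 30099632) had 34 tags and a score of 56.03. Neither overlapped a peak of any other list. A SVIL peak 117 kb into the gene (30027320 to 30027622, 21 tags) and a control day 0 LSD1 peak at 162 kb (29981882 to 29983293, 38 tags) were likewise in 1 list each. The stretch of 71.2 kb between that SVIL peak and the nearer LSD1+8a peak was the longest without any peak in the window.

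The region of all 5 lists lay 271 kb downstream of the 5′ end (29872973 to 29875016). It had 50 SVIL tags (29873546 to 29874268), 74 LSD1+8a tags (29873140 to 29874413) and 358 LSD1 tags at day 3, 74 LSD1 tags in knockdown cells and 82 in control cells at day 0. By score, its day 3 LSD1 peak ranked 15 of 20748 and its knockdown peak 390 of 10248, the best of the locus in their lists, and its control day 0 peak ranked 965 of 16882. Its SVIL peak ranked 124 of 1452. Its LSD1+8a peak ranked only 3203 of 3378, with a score of 51.1, although it had nearly as many tags as any LSD1+8a peak at the locus. Summits of the 5 peaks lay within 382 bp, with the SVIL summit (29874112) at one end and that of control day 0 (29873730) at the other.

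The next regions of several lists downstream were a pair with SVIL, after a day 3 LSD1 peak of 59 tags (29839297 to 29840712). At 308 kb (29834753 to 29837828), 2 SVIL peaks of 44 tags (29836395 to 29836959) and 23 tags (29837162 to 29837531) overlapped 1 LSD1 peak of each LSD1 list, with 255 tags at day 3, 56 in knockdown cells and 97 in control cells at day 0. Both lay inside the LSD1 peaks of control cells, while the second extended past the end of the knockdown peak (29837492). The 97 tags were the most of any control day 0 peak at the locus, and that peak ranked 398 by score. The next region, at 311 kb (29832712 to 29834515), had 18 SVIL tags, and 109 LSD1 tags at day 3, 28 in knockdown cells and 36 in control cells at day 0. Its SVIL peak (29834009 to 29834298) overlapped the LSD1 peaks of control cells on both days but not that of knockdown cells, which ended at 29833751. LSD1+8a was listed in neither region.

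Another group of 4 regions, at 338 to 404 kb, had LSD1, in part with LSD1+8a, and no SVIL. At 343 kb (29799836 to 29804036), LSD1+8a had 76 tags (29802318 to 29803986), and LSD1 had 326 tags at day 3, 31 in knockdown cells and 59 in control cells at day 0. The region at 404 kb (29739042 to 29742092) had 74 LSD1+8a tags (29739524 to 29741284), and 309 LSD1 tags at day 3, 54 in knockdown cells and 72 in control cells at day 0. Their day 3 LSD1 peaks ranked 136 and 70 of 20748 by score. The region at 338 kb (29805941 to 29807686), less than 2 kb from that at 343 kb, had 138 LSD1 tags at day 3, 37 in knockdown and 47 in control cells at day 0, and no LSD1+8a. One more, at 359 kb (29783998 to 29786908), had 166 LSD1 tags at day 3 and 35 in knockdown cells, and was not listed for control cells at day 0.

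The SVIL peak with the highest score at the locus stood alone. It lay 453 kb into the gene (29691750 to 29692138), had 45 tags, a score of 279 and a fold enrichment of 40.5, and ranked 48 of 1452. No other list had a peak there, and none within 37.5 kb on the one side or 46.9 kb on the other. Between 490 and 586 kb, the window held only LSD1, with 6 peaks at day 3 of 35 to 152 tags and 1 peak in control cells at day 0 (29621387 to 29622425, 37 tags, score 145). That peak lay inside the day 3 peak of 152 tags, and their summits were 23 bp apart.

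A run of 10 regions closed the 3′ part of the gene, over 93.5 kb (29411746 to 29505279) with gaps of at most 25 kb. It held 5 SVIL peaks, 8 LSD1 peaks of control cells at day 3, 2 of knockdown cells and 5 of control cells at day 0, and no LSD1+8a peak. Its region with the most tags, at 659 kb (29484191 to 29487481), had a pair of SVIL peaks of 32 tags (29485379 to 29485807) and 17 tags (29485832 to 29486157), separated by 25 bp. LSD1 there had 276 tags at day 3, 67 in knockdown cells and 86 in control cells at day 0. The region at 653 kb (29490018 to 29492915), with no SVIL peak, had 201 LSD1 tags at day 3 and 77 in control cells at day 0. At 647 kb (29495810 to 29498290) SVIL had 27 tags (29496705 to 29497134), and LSD1 had 206 tags at day 3 and 58 in control cells at day 0. At 640 kb (29503956 to 29505279) SVIL had 25 tags (29504625 to 29505018), and LSD1 had 66 tags at day 3 and 28 in control cells at day 0. None of these 3 regions was listed for LSD1 in knockdown cells. The last SVIL peak (29411746 to 29412121, 23 tags) lay 3.48 kb beyond the 3′ end of the gene and overlapped no other peak. The other LSD1 peaks at day 3 had 49 to 94 tags, and the one of 94 tags, at 206 kb (29938054 to 29939495), lay at a control day 0 peak of 44 tags. The remaining control day 0 peak, at 676 kb (29468265 to 29469028), had 23 tags.

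**Figure D2:**
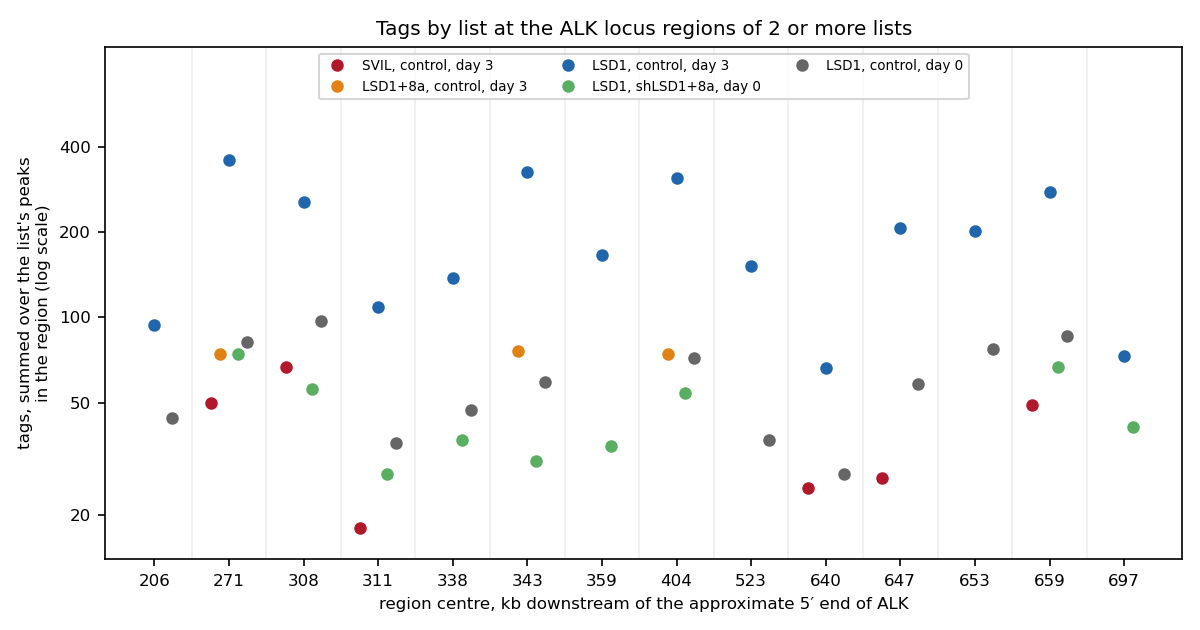
Tags of each list at the 14 regions of 2 or more lists, on a log scale, ordered by their distance from the 5′ end of ALK. Tags are raw and differ with the depth of each library, so points are to be compared between regions within a list. LSD1+8a points appear at 271, 343 and 404 kb, and SVIL points at 271, 308, 311, 640, 647 and 659 kb.

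Locus peaks were longer and held more tags than most peaks of their lists. Their median length was 389 bp for SVIL against 314 bp over the list, 1669 bp against 831 bp for LSD1+8a, and for LSD1 1535.5 bp against 1044 bp at day 3, 1107 bp against 769 bp in knockdown cells and 1352 bp against 834.5 bp in control cells at day 0. SVIL peaks had 17 to 50 tags with a median of 25, against 20 over the list, and 9 of 11 lay above that list median. LSD1+8a peaks had 34, 58, 74, 74 and 76 tags, against a list median of 38, which 4 of 5 exceeded. LSD1 peaks of control cells at day 3 had 35 to 358 tags with a median of 74, against 50, and 23 of 26 lay above. In knockdown cells the range was 28 to 74 with a median of 41, against 28, and in control cells at day 0 23 to 97 with a median of 52.5, against 26. Median tags in the 3′ and 5′ flanks, with 1 to 15 peaks a list, also lay above the list medians. They were 29 and 26 for SVIL and 62 and 55.5 for LSD1+8a. For LSD1 they were 67 and 67 at day 3, 37 and 30 in knockdown cells and 43 and 29.5 in control cells at day 0. By tags, 5 of the 26 day 3 LSD1 peaks were in the top 1% of their list and 11 in the top 10%, while by score 6 were in the top 10%. No locus peak of the other 4 lists was in the top 1% by tags.

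Fold enrichment did not follow length and tags. Its median at the locus was 13.9 for SVIL against 18.2 over the list, and 10.5 against 15.2 for LSD1+8a. For LSD1 it was 14.8 against 17.05 in control cells at day 3, 6.02 against 9.13 in knockdown cells and 7.76 against 9.30 in control cells at day 0. The list median was exceeded by 2 of 11 SVIL peaks and none of 5 LSD1+8a peaks. For LSD1 it was exceeded by 9 of 26 peaks at day 3, 1 of 9 in knockdown cells and 5 of 14 in control cells at day 0. Median tags per kb of peak were 63.5 at the locus against 63.7 over the list for SVIL, 43.8 against 44.0 for LSD1+8a, and for LSD1 56.9 against 46.0 at day 3, 41.4 against 35.4 in knockdown cells and 35.1 against 30.5 in control cells at day 0. LSD1 peaks in the flanks had median tags per kb of 54.5 and 52.95 at day 3, 37.3 and 35.9 in knockdown cells and 35.3 and 29.7 in control cells at day 0. The part that the local background of this chromosome arm plays in these values was not tested.

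**Figure D3:**
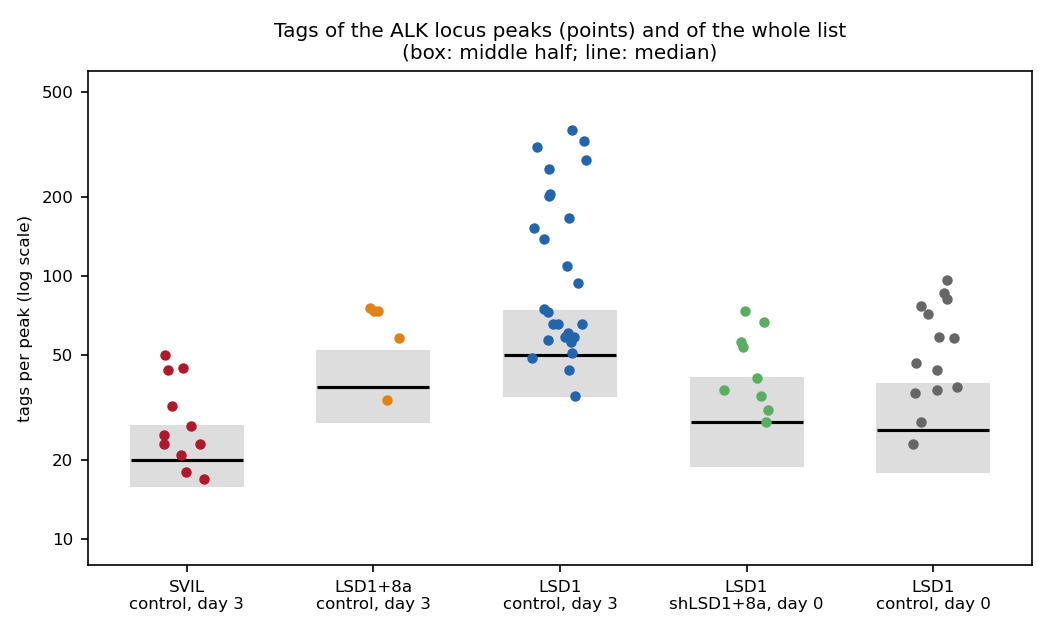
Tags per peak on a log scale for every ALK locus peak (points), beside the middle 50% of all peaks of the same list (grey box) and their median (line). Most points of each list lie above the line, among them 23 of 26 day 3 LSD1 peaks.

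For LSD1 in control cells, the locus had 26 peaks at day 3 and 14 at day 0, a ratio of 1.86 beside 1.23 for the whole lists. A day 0 peak lay at 12 of the 26 day 3 peaks (46.2%, 26.6 to 66.6), against 40.1% over the list. A day 3 peak lay at 12 of the 14 day 0 peaks (85.7%, 57.2 to 98.2), against 50.1% over the list. Among day 0 peaks above the median tags of their list, as 13 of these 14 were, the list share was 57.8%. The window was proposed with its many day 3 peaks known, so nothing is read from the share at the locus. The 12 day 3 peaks at a day 0 peak had 66 to 358 tags with a median of 204, and the 14 others 35 to 166 with a median of 59. Over the whole list these medians were 64 and 43. In all 12 overlapping pairs, day 3 had more tags, by 2.14 to 5.53 times with a median of 3.12 times. The median over the 8510 overlapping pairs of the lists was 2.26 times, and day 3 had more tags in 91.3% of them. The highest ratio was at 343 kb (326 tags at day 3 and 59 at day 0), where the peak was also 4201 bp long at day 3 and 1300 bp at day 0. Per kb of peak, the tags there were 77.6 and 45.4. Day 3 peaks were the longer ones in all 12 pairs, which raises these ratios. Per kb, day 3 still had more tags in all 12, with 52.6 to 175 against 29.5 to 65.8. Ratios per kb were not taken over the lists. Locus peaks took 0.269% of all listed tags at day 3 and 0.145% at day 0. The day 0 titles of these LSD1 lists end in a number and the day 3 title does not, and the day cannot be told apart from batch or input.

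For LSD1 at day 0, the locus had 9 peaks in LSD1+8a knockdown cells and 14 in control cells, a ratio of 0.643 beside 0.607 for the whole lists. A control peak lay at 7 of the 9 knockdown peaks (77.8%, 40.0 to 97.2), against 69.4% over the list. A knockdown peak lay at 7 of the 14 control peaks (50.0%, 23.04 to 76.96), against 42.1%. Both shares were near those of the whole lists. Among peaks above the median tags of their list, as 8 of these 9 and 13 of these 14 were, the list shares were 88.6% and 64.0%. Those lay above the shares at the locus, but inside their wide intervals. Tags were lower in knockdown cells in all 7 overlapping pairs, at 0.525 to 0.902 times those of control cells with a median of 0.778. Over the 7162 pairs of the lists the median was 0.938 times, and knockdown had more tags in 40.1%. The knockdown peak was also the shorter one in all 7 locus pairs. Per kb of peak, knockdown was above control in some of these pairs and below it in others. The ranges were 28.5 to 67.0 tags per kb in knockdown cells and 29.5 to 65.8 in control cells. The 7 control peaks with a knockdown partner had 36 to 97 tags with a median of 72, and the 7 without one had 23 to 77 with a median of 38. Both knockdown peaks without a control day 0 partner, at 697 kb (29446686 to 29447914, 41 tags) and 359 kb (29785044 to 29786150, 35 tags), overlapped a control peak of day 3, with 73 and 166 tags. The share over all such knockdown peaks of the list was not taken, so this is a description only.

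Among control day 0 LSD1 peaks, all 3 with a day 3 LSD1+8a peak on them were listed in knockdown cells too, against 73.3% over the list. Of the 11 without one, 4 were listed, against 37.7% over the list. For control peaks at a SVIL peak the number was 4 of 6, against 60.4% over the list, and for those not at one 3 of 8, against 41.3%. The 3 peaks at LSD1+8a had 59 to 82 tags and the 11 others 23 to 97, and the 6 at SVIL had 28 to 97 and the 8 others 23 to 77. These groups are too small to be set against each other. Depth differs between the libraries by an unknown amount. Its part in the lower tags of knockdown cells, and that of their shorter peaks, was not tested.

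In control cells at day 3, LSD1+8a was set against LSD1. An LSD1 peak lay at 3 of the 5 LSD1+8a peaks (60%, 14.7 to 94.7), close to 59.6% over the list. In the other direction, 3 of the 26 LSD1 peaks had LSD1+8a on them (11.5%, 2.45 to 30.2), close to 9.69%. The 3 LSD1 peaks concerned had 309, 326 and 358 tags and were the 3 strongest of the locus by tags and by score, while the 23 others had 35 to 276. Over the whole list, LSD1 peaks at an LSD1+8a peak had a median of 64 tags and the others 49. LSD1+8a summits lay 33, 139 and 139 bp from the LSD1 summits. The LSD1+8a tags were 0.207 to 0.239 times the LSD1 tags in these pairs, against a median of 0.604 times over the 2018 pairs of the lists. The LSD1 peaks were also longer, with 2044 to 4201 bp against 1274 to 1761 bp. Per kb of peak, LSD1+8a had 42.0 to 58.1 tags and LSD1 77.6 to 175. These pairs hold the strongest LSD1 peaks of the locus, so nothing is read from their low ratio. In the gene body, 4 LSD1+8a summits lay on the 5′ side of its midpoint and 1 on the 3′ side, while for LSD1 these numbers were 9 and 15.

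SVIL and LSD1+8a met at 1 region. LSD1+8a was listed at 1 of the 11 SVIL peaks (9.09%, 0.230 to 41.3), against 18.6% over the list. SVIL was listed at 1 of the 5 LSD1+8a peaks (20%, 0.505 to 71.6), against 7.7%. This was the region of all 5 lists, with 50 SVIL and 74 LSD1+8a tags and summits 376 bp apart, against a median of 100.5 bp over the 270 pairs of the lists. SVIL summits in the gene body were split evenly, with 5 on either side of the midpoint.

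Most SVIL peaks overlapped an LSD1 peak, at the locus as over the whole list. LSD1 at day 3 was listed at 8 of the 11 SVIL peaks (72.7%, 39.0 to 94.0), against 58.7% over the list. Among SVIL peaks above the median tags of their list the share was 62.1%, and the interval holds both list shares. SVIL was listed at 6 of the 26 LSD1 peaks (23.1%, 8.97 to 43.6), against 3.97% over the list. The window was proposed with its many SVIL peaks known, so nothing is read from either share at the locus. The 8 SVIL peaks lay in 6 LSD1 peaks, because 2 LSD1 peaks held a pair each. Those 6 LSD1 peaks had 66, 109, 206, 255, 276 and 358 tags, a median of 231, and the 20 others 35 to 326 with a median of 66. Over the list the medians were 99 and 49. SVIL summits lay 40 to 416 bp from the LSD1 summit with a median of 178 bp, against 82 bp over the 853 pairs of the lists. All 8 SVIL peaks also overlapped a control day 0 LSD1 peak, and the 3 others overlapped no LSD1 peak of any list. The matching shares over the whole SVIL list were not taken, so nothing is read from these counts.

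**Figure D4:**
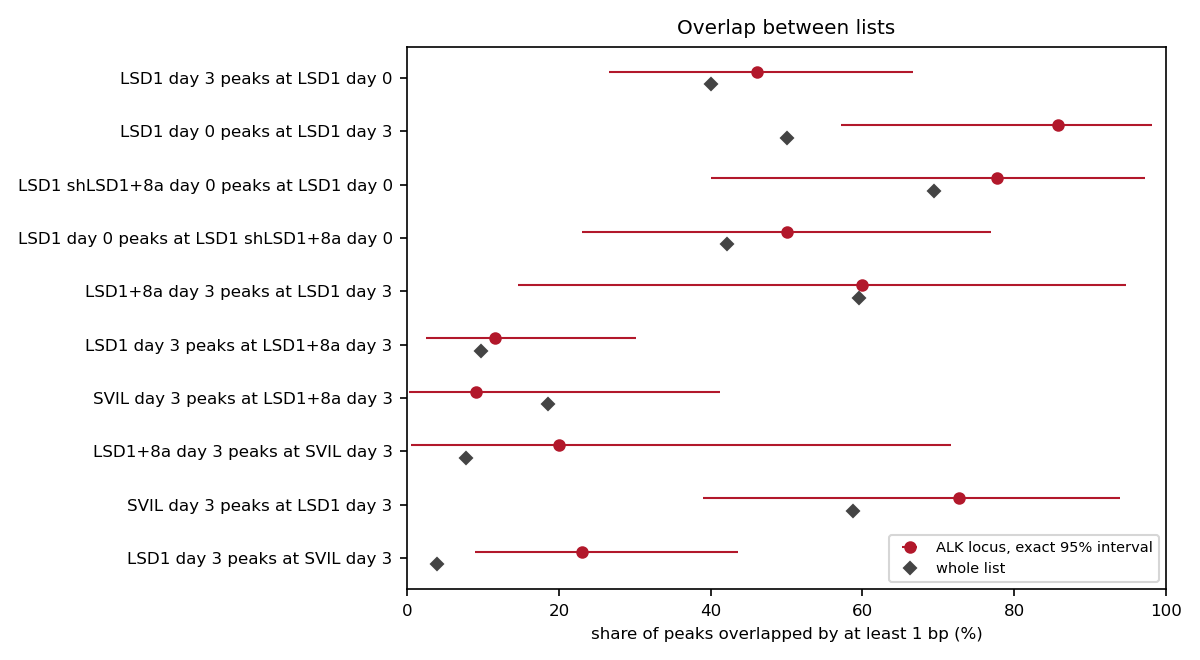
Share of peaks of the first list overlapped by at least 1 bp by a peak of the second, for ALK locus peaks (circles with exact 95% intervals) and for the whole list (diamonds), in control cells unless shLSD1+8a is named. The widest gap is that of day 0 LSD1 peaks at day 3 LSD1, with 85.7% at the locus and 50.1% over the list. The window was proposed with its peak counts known, so nothing is read from this gap.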

How the data were processed

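ChIP-seq peaks were taken from 5 lists deposited by the authors. Each was matched to its library by its name, which fits 1 sample title only. Whether any pooling preceded the calls is not stated. The tools CASAVA and Bowtie 1.0.0 and the builds hg19 and mm9 are named per the submitters' processing notes. The caller, threshold and input were not given in the sources used here. Per the labels' protocols, DNA of 300 to 600 bp was selected and 50 bp reads were sequenced, which limits how finely a summit can be placed. The deposited tags are a whole-number count per peak that the authors did not normalize. The deposited fold enrichment is a ratio from the authors' caller. The deposited score lost its column name and has no unit. Both were ranked within a list only.

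Peaks overlapping the window were counted and compared in Python 3.11.15 with pandas 2.3.3 and scipy 1.17.1. A peak was shared when a peak of another list overlapped it by at least 1 bp. Densities used the last peak end of each chromosome, 3042 Mb in all. Merging, overlaps and shares were tested on simulated peaks with planted overlaps. Alternatives were the gene body only, an overlap of 50% of both peaks, a gap of up to 1 kb between edges, merging within 1 kb, the higher-scoring 50% of each list, and the lowest SVIL score (71.7) applied to every list. The members and lists were chosen with earlier results of these data known. The text gives all SVIL and LSD1+8a peaks, the regions of 3 or more lists and the 5 highest scoring peaks of each LSD1 list, and the other windows with the most SVIL peaks. Further peaks were named after their values were seen. Promoter bases are from the RefSeq table for GRCh38.p14, and no coordinates were converted. Planned counts at other ALK pathway genes were not run, because no annotation of hg19 was used here.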

Additional observations from a re-analysis of the deposited data

How the results depend on the processing

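All 5 counts stayed within 1.5 times of the reported ones with the gene body only and with merging within 1 kb. Among the higher-scoring 50% of each list, the counts at the locus were 6 for SVIL, 2 for LSD1+8a, 15 for LSD1 in control cells at day 3, 4 in knockdown cells and 10 in control cells at day 0. This cut removes peaks by its own construction. With the lowest SVIL score applied to every list, LSD1+8a had 2 peaks left, and the other counts stayed within 1.5 times. None of the 5 shares changed with edges at most 1 kb apart. With a reciprocal overlap of 50%, the share of SVIL peaks at day 3 LSD1 was 0 of 11 (0%, which allows up to 27.3%). This is because the LSD1 peaks there are longer than 2 times the SVIL peaks. The other shares stayed in their intervals. Upper limits given here for a share of 0% are 3 divided by the number of peaks, an approximate bound and not an exact interval. Among the higher-scoring 50%, the share at the locus was 66.7% for LSD1 at day 3 against day 0 and 100% (4 of 4) for knockdown against control. For SVIL against LSD1+8a it was 0% (0 of 6, which allows up to 50.0%). The cause of these changes was not tested. Shares over the list were taken with another cut, from peaks above the median tags of the first list against the whole second list. They were 54.9%, 88.6% and 23.1% in the same order and are not a like measure. No paired analysis was possible because each group is 1 library. Unknown depth limits every count of peaks, and 5 to 26 peaks a list leave wide intervals.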
